A study of Mus musculus with 36 samples.

Results

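The clustered protocadherins are cell-surface adhesion genes that lie in 3 neighbouring arrays, the alpha, beta and gamma clusters, on mouse chromosome 18. Members were taken by symbol: every gene of the count table named Pcdha, Pcdhb or Pcdhg with a number, or with a class letter and a number, that had a count in any of 18 libraries. Of 57 such symbols 56 had a count, among 37417 genes with a count and 51734 symbols in all. The alpha cluster gave 13 members, the beta cluster 22 and the gamma cluster 21, and 5 of the 56 are C-type isoforms (Pcdhac1, Pcdhac2, Pcdhgc3, Pcdhgc4 and Pcdhgc5).

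The libraries were mRNA sequencing of the mouse embryonic stem cell line E14 (ESC) and of neural precursor cells (NPC) made from it with retinoic acid. Each stage was measured as WT, as MLL3/4 dCD (MLL3 and MLL4 present but without catalytic activity) and as MLL2dTAG (MLL2 fused to a degron), with 3 libraries in each of the 6 groups. All 18 libraries are labelled as treated with dTAG-13, the compound that directs the degron-tagged protein to degradation, WT and ESC included. The labels give 2 µM for both stages, and for NPC they give treatment from day 1 of differentiation and harvest on day 4. Each genotype is 1 cell line, so the edit and the line cannot be told apart, and the labels do not say that replicates were separate cultures, so p-values measure the spread between these libraries, which may be technical.

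Each alpha and gamma isoform has its own first exon, with its own promoter, that is spliced to constant exons shared by its cluster, and each beta isoform comes from a single exon. Neurons switch on a few alternate isoforms from this array, through CTCF, cohesin and distant enhancers, and the isoforms bind only their own kind on a facing membrane, which gives a neuron a surface identity used in self-avoidance. The C-type isoforms are known for broad, regular expression in neurons and not for this stochastic choice.

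What could be counted differed between the members. Measured against the GENCODE M21 annotation, the exons that isoforms share leave only the unshared exons countable for one gene, so a level here is that of sequence no other gene covers. Pcdhga10, the symbol without a count, has 2613 bases that no other gene of its strand covers and 0 bases free once the opposite strand is considered too. Of 61 genes in that situation 55 (90.2%) had no count, against 11.3% of 26547 genes with at least 1000 free bases counted over both strands, so its absence says nothing of its expression. Up to 25.5% of the 50-base windows of a member (Pcdha7) also occur in other genes, with 24.6% in Pcdha6, 18.8% in Pcdha8, 16.8% in Pcdhgb1 and 16.4% in Pcdhgb2, and values of such members are uncertain where reads could be split or dropped. In the test across all genes 52 of the 56 members passed the filter on low counts. The others were Pcdha4, Pcdha8, Pcdhac1 and Pcdhb1, with 16, 49, 34 and 18 counts over all 18 libraries.

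Total counts per library ranged from 19430860 to 46041277. ESC WT replicate 2 stood furthest from its group, with a chi-square per degree of freedom over genes of 9.26 and 7.61 against the other two ESC WT libraries, where all other replicate pairs lay between 2.15 and 4.11. Without it the ESC counts of called members below became 14 for beta and 16 for gamma in dCD, and 6 and 19 in MLL2dTAG. Transcripts of the edited genes were present at every stage, and both edits act on the protein, so these levels do not check the labels: Kmt2b, which encodes MLL2, was at 212 ± 19.4 CPM (library-size-scaled counts, with trimmed mean of M values factors, mean ± SD of 3) in ESC WT and 207 ± 6.48 CPM in ESC MLL2dTAG. Of 8 markers of embryonic stem cells 7 were lower in WT NPC than in WT ESC, and of 8 markers of neural precursors 7 were higher (edgeR quasi-likelihood test, adjusted p under 0.05). Of all genes tested 40.4% were lower and 39.1% higher. The stem cell marker Dppa3 had no count in any NPC library, and the precursor marker Neurog2 had none in ESC WT. The 7 endoderm markers were also all higher in WT NPC, with a summed level of 409 to 425 CPM against 60.6 to 63.4 CPM, and in bulk samples such as these fewer expressing cells and less RNA per cell cannot be told apart. Of the members' counts above 0, 63.5% were even numbers. Over all genes 60.8% to 66.5% of counts from 1 to 10 were even in each library, and 48.9% to 50.4% of counts over 1000. The excess is thus one of low counts in the whole table and not particular to the members. The counting intervals below treat each count as independent and cover counting error only, so they may be too narrow.

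The summed level of the clusters showed the gamma cluster as the main one in ESC and the beta and gamma clusters side by side in NPC. In ESC WT the alpha members summed to 0.905, 0.530 and 0.883 CPM, the beta members to 1.54, 2.85 and 1.46 CPM, and the gamma members to 32.1, 36.9 and 31.6 CPM. In NPC WT the same sums were 5.47, 6.65 and 5.92 CPM for alpha, 119.7, 119.4 and 123.6 CPM for beta, and 159.7, 155.3 and 152.2 CPM for gamma. No NPC WT library overlapped an ESC WT library in any cluster, and the mean was 7.78-fold higher for alpha, 61.9-fold for beta and 4.64-fold for gamma. The beta cluster supplied 5.28% ± 1.55 (SD, n = 3) of all cluster counts in ESC WT and 42.8% ± 0.976 in NPC WT.

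**Figure D1:**
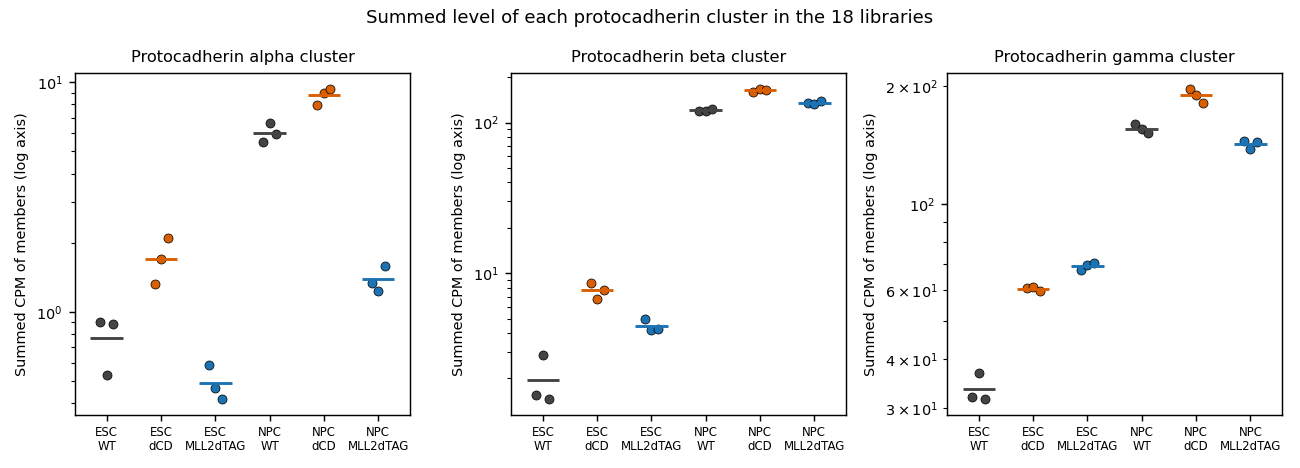
Summed CPM (log axis) of the alpha, beta and gamma members in each of the 18 libraries, by stage and genotype; points are libraries and lines are means of 3. All NPC sums lie above the ESC sums of the same genotype, and the alpha sum of NPC MLL2dTAG (1.39 ± 0.183 CPM) lies below the other NPC groups.

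Among the genotypes the alpha cluster stood apart in NPC MLL2dTAG. Its 3 libraries summed to 1.33, 1.24 and 1.59 CPM, against 7.91, 8.96 and 9.35 CPM in NPC dCD. The groups did not overlap, and the NPC MLL2dTAG mean was 4.34-fold below NPC WT, while the beta sum was 1.12-fold above NPC WT and the gamma sum 1.09-fold below. In ESC both edited lines had higher gamma sums than WT, 60.5 ± 0.719 CPM in dCD and 69.4 ± 1.42 CPM in MLL2dTAG against 33.5 ± 2.94 CPM. The ESC beta sum was 7.73 ± 0.916 CPM in dCD and 4.46 ± 0.418 CPM in MLL2dTAG against 1.95 ± 0.780 CPM in WT, where it rests on 158 counts over the 3 libraries and replicate 2 is the highest.

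Per kilobase of countable sequence, the C-type isoform Pcdhgc3, which is known for a role in dendrite branching of cortical neurons, had the highest level of all members at both stages of WT. It stood at 4.29 CPM per kb in ESC WT and at 16.1 ± 0.562 CPM per kb in NPC WT. Next in NPC WT came the gamma A isoform Pcdhga7 at 7.36 ± 0.411 CPM per kb, then Pcdhga3 at 4.76 ± 0.207 and the last gene of the beta cluster, Pcdhb22, at 4.74 ± 0.0260 CPM per kb, and Pcdhga3 and Pcdhb22 did not differ beyond their spread. The highest alpha member was Pcdha2, at 0.539 ± 0.143 CPM per kb. Along the beta cluster the NPC WT level per kb was higher toward the end nearest the gamma cluster: the Spearman correlation of level with gene order was 0.68 over 22 members, which is a description over genes measured in the same libraries. The same correlation was -0.52 over 12 alpha members and -0.21 over 21 gamma members.

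**Figure D2:**
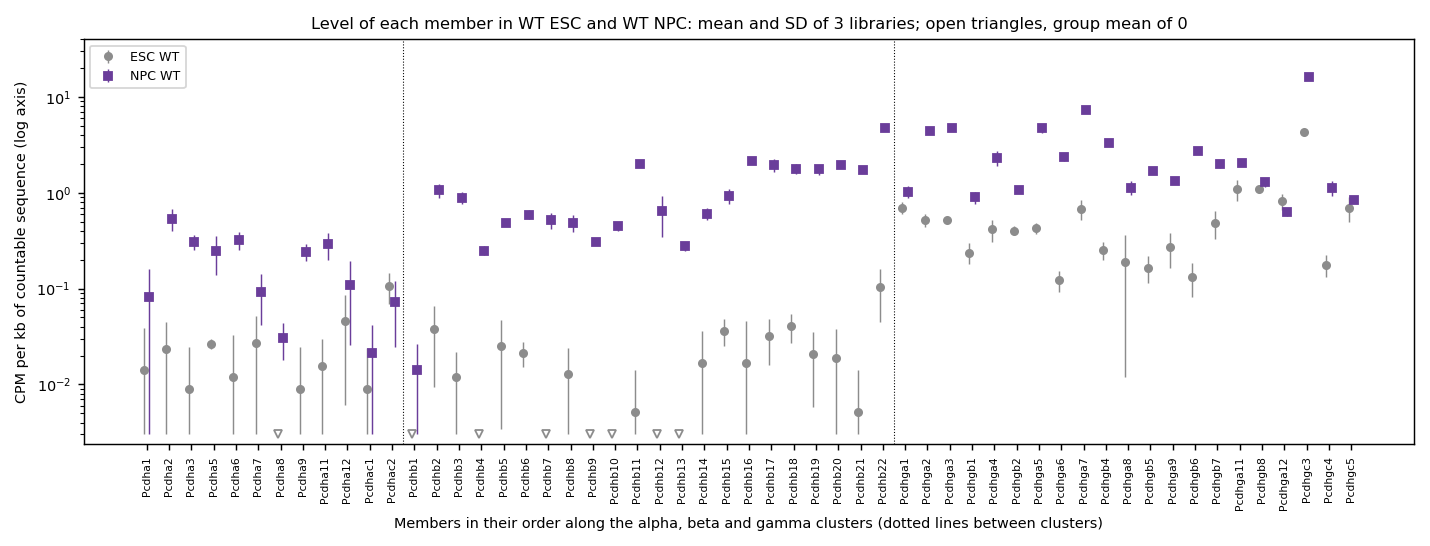
CPM per kb of countable sequence (log axis) of each member in WT ESC (grey circles) and WT NPC (purple squares), mean ± SD of 3 libraries, in gene order; lower error bars are clipped at the axis and open triangles are ESC groups without a count. Pcdhgc3 is highest at both stages (4.29 and 16.1 CPM per kb), and most beta members have NPC levels far above their ESC levels.

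The comparison of WT NPC with WT ESC asks what differentiation did to each member. Nearly the whole set was higher in NPC: 46 of 52 tested members were higher and 1 was lower (edgeR quasi-likelihood test, Benjamini-Hochberg adjusted p under 0.05), where 39.1% of all genes tested were higher and 40.4% lower. All 21 tested beta members rose, 7 of 10 alpha members and 18 of 21 gamma members, with median log2 changes of 6.32, 3.71 and 2.42 against -0.04 over all genes. With members of a group without counts set against a floor of 3 counts over the group, the beta median was 5.07. Of the 52 members 47 had every NPC WT library above every ESC WT library, and 39.6% of all genes did. Many alpha and beta members had few or no ESC counts and passed the low-count filter mainly through NPC. Their shares of higher calls and of groups without overlap are thus partly set by the filter. The summed levels above include every member.

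Pcdhb22 had 0.638, 0.995 and 0.272 CPM in ESC WT and 29.3, 29.0 and 29.3 CPM in NPC WT. All 3 NPC libraries lay far above ESC, and the log2 change was 5.51 ± 0.16 (SE), adjusted p = 1.3e-26 by the edgeR quasi-likelihood test. Pcdhb16 had 0, 0.265 and 0 CPM in ESC WT and 10.9, 11.4 and 11.7 CPM in NPC WT, a log2 change of 6.74 ± 0.27. Pcdhb7 had no count in ESC WT and 190 counts over the 3 NPC WT libraries, which is 47.3-fold higher against a floor of 3 counts over the group. Such a fold takes the higher count as exact, so it is no strict lower bound. Pcdhb4, without a count in ESC WT as well, was 24.4-fold higher against the same floor.

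In the gamma cluster Pcdhga7 went from 2.18, 1.39 and 1.63 CPM to 20.0, 17.9 and 18.7 CPM, a log2 change of 3.49 ± 0.12. Pcdhgb6 showed the largest fitted rise of the gamma members, from 0.213, 0.332 and 0.476 CPM to 6.67, 6.92 and 7.62 CPM, with a log2 change of 4.30 ± 0.25 (edgeR adjusted p = 1.7e-17). Neither gene overlapped between the stages. The gamma members nearest the C-type exons had small fitted changes: Pcdhgb8 had a log2 change of 0.25 ± 0.15 (adjusted p = 0.13) and Pcdhga12 one of -0.37 ± 0.17 (edgeR adjusted p = 0.048), both named after their values were seen. The groups of Pcdhga12 overlapped, and its call was lost when ESC WT replicate 2, NPC WT replicate 1 or NPC WT replicate 3 was left out.

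Most alpha isoforms, whose cytoplasmic part binds the WAVE actin-regulating complex, rose from almost no counts. Pcdha2 had 0.106, 0 and 0.0679 CPM in ESC WT and 1.2, 1.76 and 1.09 CPM in NPC WT, without overlap, and the log2 change was 4.62 ± 0.62 (edgeR adjusted p = 4.5e-08). Pcdha3 rested on 2 counts in ESC WT and 80 in NPC WT, a ratio of 29.9 with an exact 95% interval of 8.0 to 251. Of the 3 alpha members that did not pass the test, 1 is the C-type isoform Pcdhac2.

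Among ESC, dCD was compared with WT to learn what the cells change when MLL3 and MLL4 lose their activity. Protocadherins were higher: 34 of 52 tested members rose (1 alpha, 15 beta and 18 gamma), where 25.7% of all genes were called higher and 22.6% lower. No member was lower by the edgeR quasi-likelihood test, also at an unadjusted p under 0.05 (0 members) and by the DESeq2 test (0), though leaving out ESC dCD replicate 1 gave 1 lower beta call. The median log2 change was 1.29 over the members and 0.02 over all genes. Every ESC dCD library lay above every ESC WT library for 28 members, and 27.1% of all genes did so. With a fit on the ESC dCD and ESC WT libraries only, 2 beta members passed the filter on low counts, and both were called.

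The gamma members carried most of the counts in ESC. Pcdhgc3 had 7.71, 8.52 and 7.20 CPM in WT and 13.1, 11.9 and 13.6 CPM in dCD, without overlap, a log2 change of 0.72 ± 0.09 (edgeR adjusted p = 3.2e-08). Pcdhga3 had 1.33, 1.26 and 1.46 CPM in WT and 3.84, 3.27 and 2.91 CPM in dCD, a log2 change of 1.30 ± 0.18. Pcdhga8, an A-type gamma isoform, gave the largest gamma change at 1.99 ± 0.38, with 0.319, 0.796 and 0.0679 CPM in WT and 1.02, 2.15 and 1.68 CPM in dCD. For these 3 genes no dCD library was as low as a WT library.

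The beta members were at the edge of detection in ESC WT. Pcdhb17 had 0.213, 0.0663 and 0.170 CPM in WT and 1.11, 1.03 and 0.671 CPM in dCD, without overlap, a log2 change of 2.69 ± 0.43 (edgeR adjusted p = 2.9e-06). Pcdhb2 had 0.0532, 0.199 and 0.0679 CPM in WT and 0.981, 0.662 and 0.373 CPM in dCD, a log2 change of 2.49 ± 0.51. Pcdhb4 had no count in WT and 17 counts in dCD, 5.97-fold higher against a floor of 3 counts over the group. In the alpha cluster the single call was Pcdha6, with 2 counts in WT and 13 in dCD, a ratio of 6.85 (exact 95% interval 1.55 to 62.5), and it was lost without any 1 of 4 libraries (ESC WT replicate 1 or 2, ESC dCD replicate 2 or 3).

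ESC MLL2dTAG against WT asks the same of MLL2. Here the gamma cluster rose and the others mostly did not pass the test: 19 of 21 gamma members and 6 of 21 beta members were higher, and 1 of 10 alpha members was lower, where 28.7% of all genes were higher and 28.2% lower. The median log2 changes were 1.12 for gamma, 1.27 for beta and -2.91 for alpha. For alpha it was -0.82 with members without counts set against a floor of 3 counts. All 3 MLL2dTAG libraries lay above all 3 WT libraries for 20 of the 21 gamma members, against 30.1% of all genes. For the beta cluster the number of calls was 3 without ESC MLL2dTAG replicate 1, and with a fit on these groups only 1 beta member passed the filter on low counts, which was called.

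Pcdhgb4, a B-type gamma isoform, had 0.745, 1.13 and 0.849 CPM in ESC WT and 3.11, 3.82 and 3.16 CPM in ESC MLL2dTAG, a log2 change of 1.85 ± 0.19 (edgeR adjusted p = 1.3e-10). Pcdhga8 had 1.65, 2.23 and 1.64 CPM in MLL2dTAG, with a log2 change of 2.17 ± 0.36, the highest of the gamma members. Pcdhgc3 had 11.7, 11.8 and 12.8 CPM, a change of 0.63 ± 0.09. For these genes no MLL2dTAG library overlapped WT. Pcdhb17 rose with 0.659, 0.310 and 0.548 CPM and a log2 change of 1.81 ± 0.48 (edgeR adjusted p = 0.0015), also without overlap. The lower alpha call, Pcdha5, rests on 5 counts in WT against 0 in MLL2dTAG, 2.08-fold lower against a floor of 3 counts. The call was lost without any 1 of 5 libraries (each ESC MLL2dTAG replicate, ESC WT replicate 2 or 3).

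**Figure D3:**
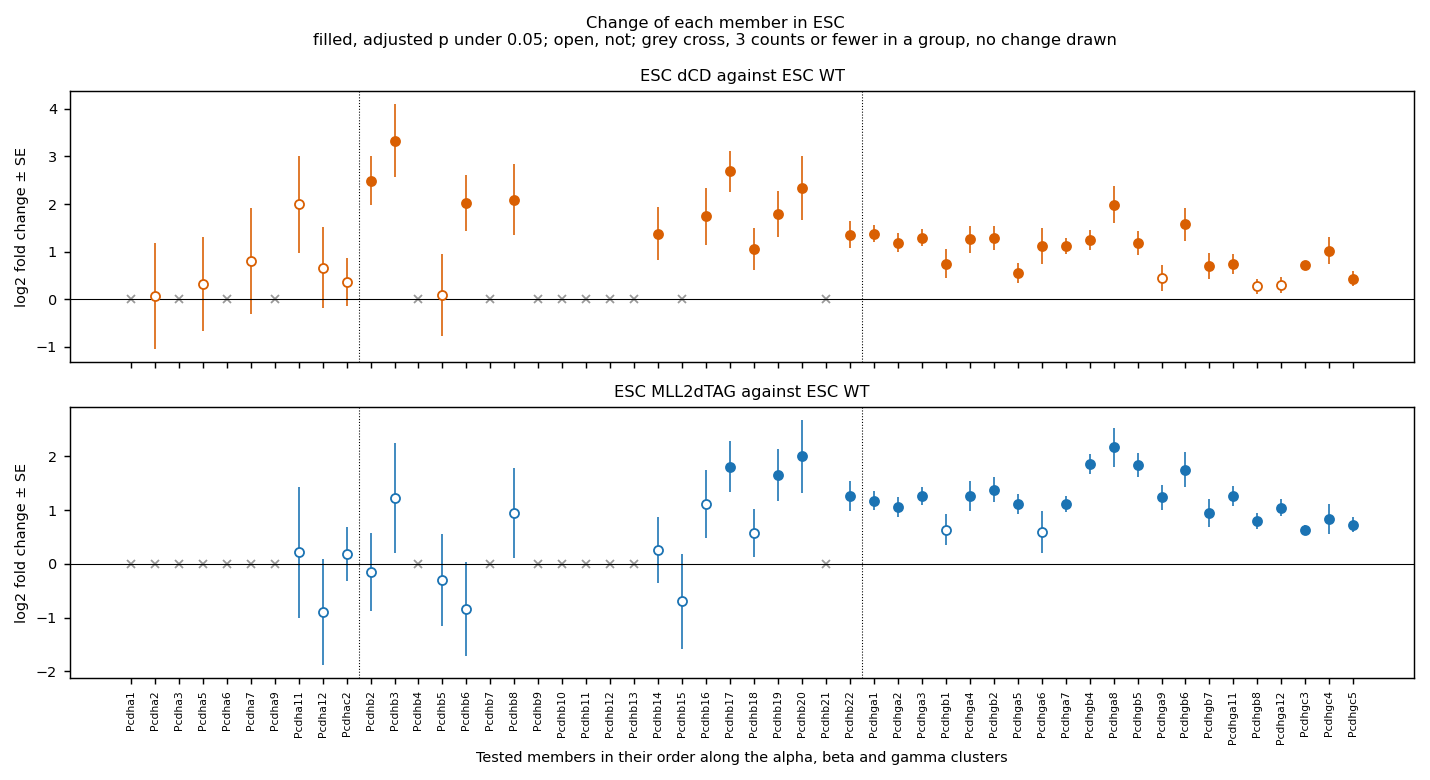
log2 fold change ± SE of each tested member in ESC dCD (top) and ESC MLL2dTAG (bottom) against ESC WT, in gene order; filled points passed an adjusted p of 0.05, open points did not, and grey crosses mark members with 3 counts or fewer in a group, for which no change is drawn. The gamma members are filled in both panels, 18 and 19 of 21.

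Both ESC comparisons share the WT libraries, so the lines were also compared with each other. ESC MLL2dTAG against ESC dCD had 7 of 21 gamma members higher, 6 of 21 beta members lower and 5 of 10 alpha members lower. Over the 52 tested members 7 were higher and 11 lower, both below the shares of all genes, 23.4% higher and 23.7% lower. Pcdhb2 had 0.220, 0.0621 and 0.0522 CPM in MLL2dTAG, below all 3 dCD libraries, with a log2 difference of -2.64 ± 0.49 (edgeR adjusted p = 2.9e-05). Pcdhga9, an A-type isoform, had 2.45, 1.92 and 2.66 CPM in MLL2dTAG and 1.49, 1.70 and 0.894 CPM in dCD, a log2 difference of 0.80 ± 0.23, which missed the threshold without ESC dCD replicate 3 (edgeR adjusted p = 0.06). The alpha calls rest on 6 to 13 counts in dCD against none in MLL2dTAG and fell to 2 or 3 without any 1 MLL2dTAG library. All 12 counts of Pcdha3 in ESC dCD lie in replicate 3, and without that library no difference was left (log2 difference 0.00).

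In NPC, beta members gave the most calls of dCD against WT, and all 4 tested C-type isoforms were higher. Of 52 tested members 27 were higher (1 alpha, 15 beta, 11 gamma) and 1 was lower, where 26.7% of all genes were higher and 26.8% lower. Every NPC dCD library lay above every NPC WT library for 33 members, against 29.6% of all genes. The median log2 change was 0.46 over the members and -0.02 over all genes, and 7 members were called at least 2-fold higher, against 7.03% of all genes.

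Pcdhb6 had the largest change of the called beta members: 2.5, 2.10 and 2.07 CPM in NPC WT and 7.30, 5.76 and 6.57 CPM in NPC dCD, without overlap, a log2 change of 1.56 ± 0.18 (edgeR adjusted p = 4.2e-09). Pcdhb2 had 3.01, 2.5 and 3.49 CPM in WT and 5.43, 5.98 and 5.83 CPM in dCD, a change of 0.94 ± 0.20, and Pcdhb22 had 31.1, 32.2 and 30.3 CPM in dCD, just above the 3 WT libraries, at 0.10 ± 0.08 (edgeR adjusted p = 0.34). Across 21 beta members the log2 change had a Spearman correlation of -0.68 with gene order, larger at the alpha end. Earlier members also have lower levels per kb, and the correlation is a description over genes of the same libraries.

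Gamma members in NPC dCD were mixed. Pcdhgb2 had 3.29, 2.85 and 2.82 CPM in WT and 6.53, 5.60 and 5.22 CPM in dCD, a log2 change of 0.96 ± 0.17 (edgeR adjusted p = 1.1e-05). Pcdhga7, the highest A-type isoform, had 20.1, 22.5 and 19.4 CPM in dCD, overlapping WT, with a change of 0.13 ± 0.08 that did not pass (adjusted p = 0.17). Pcdhgb6 had 5.95, 5.05 and 5.10 CPM in dCD against 6.67, 6.92 and 7.62 CPM in WT and was the lower call, at -0.40 ± 0.16 (edgeR adjusted p = 0.03). The DESeq2 test gave it an adjusted p of 0.091, and it was also lost without NPC WT replicate 2 or 3 or NPC dCD replicate 2 or 3.

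In NPC MLL2dTAG most alpha isoforms were lower than in WT, while beta and gamma members were called in both directions. Of 10 tested alpha members 8 were lower, of 21 beta members 5 were higher and 5 lower, and of 21 gamma members 5 were higher and 9 lower, where 33.3% of all genes were higher and 28.4% lower. The beta counts lie below those shares in both directions. The median log2 changes were -2.55 for alpha, -0.16 for beta and -0.19 for gamma, against 0.03 over all genes. Of the 10 tested alpha members 8 had every MLL2dTAG library below every WT library, and 31.5% of all genes tested did. Of the 10, 8 were called at least 2-fold lower, and 11.9% of all genes tested were. These are the same 8 members that were called lower, so the counts are not separate results. Members with counts this low can be called only at large changes. The alpha members passed the low-count filter mainly through NPC WT and NPC dCD. Their shares of lower calls and of groups without overlap are thus partly set by the filter. No alpha member was higher by the edgeR quasi-likelihood test, also at an unadjusted p under 0.05 (0 members) and by the DESeq2 test (0).

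Pcdha2 had 1.2, 1.76 and 1.09 CPM in NPC WT and 0.0593, 0.132 and 0.313 CPM in NPC MLL2dTAG, a log2 change of -2.96 ± 0.46 (edgeR adjusted p = 1e-06). Pcdha11 had 0.759, 1.44 and 1.09 CPM in WT and 0.178, 0.0883 and 0.0522 CPM in MLL2dTAG, a change of -3.37 ± 0.62. Pcdha6 had 63 counts in WT and 2 in MLL2dTAG, a ratio of 0.0284 with an exact 95% interval of 0.00337 to 0.107. None of the MLL2dTAG libraries reached a WT library for these 3 isoforms. The tested alpha members that were not called stand nearest the constant exons: Pcdha12 (-0.22 ± 0.64), named after its values were seen, and the C-type isoform Pcdhac2. No alpha member reaches a mean of 1 CPM over all 18 libraries, so none is tested under a filter on that mean.

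Within the beta cluster the direction followed gene order. The lower members were Pcdhb2, Pcdhb3, Pcdhb4, Pcdhb6 and Pcdhb11, and the higher ones Pcdhb17, Pcdhb19, Pcdhb20, Pcdhb21 and Pcdhb22, all of the latter further toward the gamma cluster than all of the former. Pcdhb3, Pcdhb11, Pcdhb20 and Pcdhb21 were named after their values were seen. Pcdhb2 fell from 3.01, 2.5 and 3.49 CPM to 0.711, 0.927 and 0.939 CPM, a log2 change of -1.79 ± 0.24 (edgeR adjusted p = 4.2e-08). Pcdhb17 rose from 7.50, 9.90 and 9.88 CPM to 12.4, 14.4 and 14.0 CPM, a change of 0.58 ± 0.11 (adjusted p = 2.8e-05). Pcdhb22 rose from 29.3, 29.0 and 29.3 CPM to 39.4, 39.9 and 38.4 CPM, a change of 0.43 ± 0.08. None of these 3 overlapped between the groups. Over 21 beta members the log2 change and gene order had a Spearman correlation of 0.84, a description over genes that share libraries and of which the later ones have higher levels. For the 21 gamma members it was 0.15. The lower calls of Pcdhb4 and Pcdhb6 were lost without NPC WT replicate 2 for the first (edgeR adjusted p = 0.059) and without NPC MLL2dTAG replicate 1 or 2 or NPC WT replicate 1 for the second.

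Among gamma members Pcdhgb2 rose from 3.29, 2.85 and 2.82 CPM to 9.07, 8.28 and 9.47 CPM in NPC MLL2dTAG, a log2 change of 1.58 ± 0.16 (edgeR adjusted p = 1.4e-10). Its neighbour Pcdhga5 fell from 11.3, 13.3 and 11.2 CPM to 4.68, 4.57 and 4.69 CPM, a change of -1.37 ± 0.11 (adjusted p = 1.7e-13). In both cases the groups did not overlap. Pcdhga7 fell from 20.0, 17.9 and 18.7 CPM to 9.43, 9.93 and 10.6 CPM, a change of -0.92 ± 0.09, and Pcdhgb4, next to it, rose to 17.7, 14.3 and 17.1 CPM, a change of 0.45 ± 0.09. By type, 6 of 11 A-type members were lower and 1 higher, and 2 of 7 B-type members were lower and 3 higher, where 28.4% of all genes were lower and 33.3% higher. The B-type counts lie near those shares, and the types were not tested against each other.

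**Figure D4:**
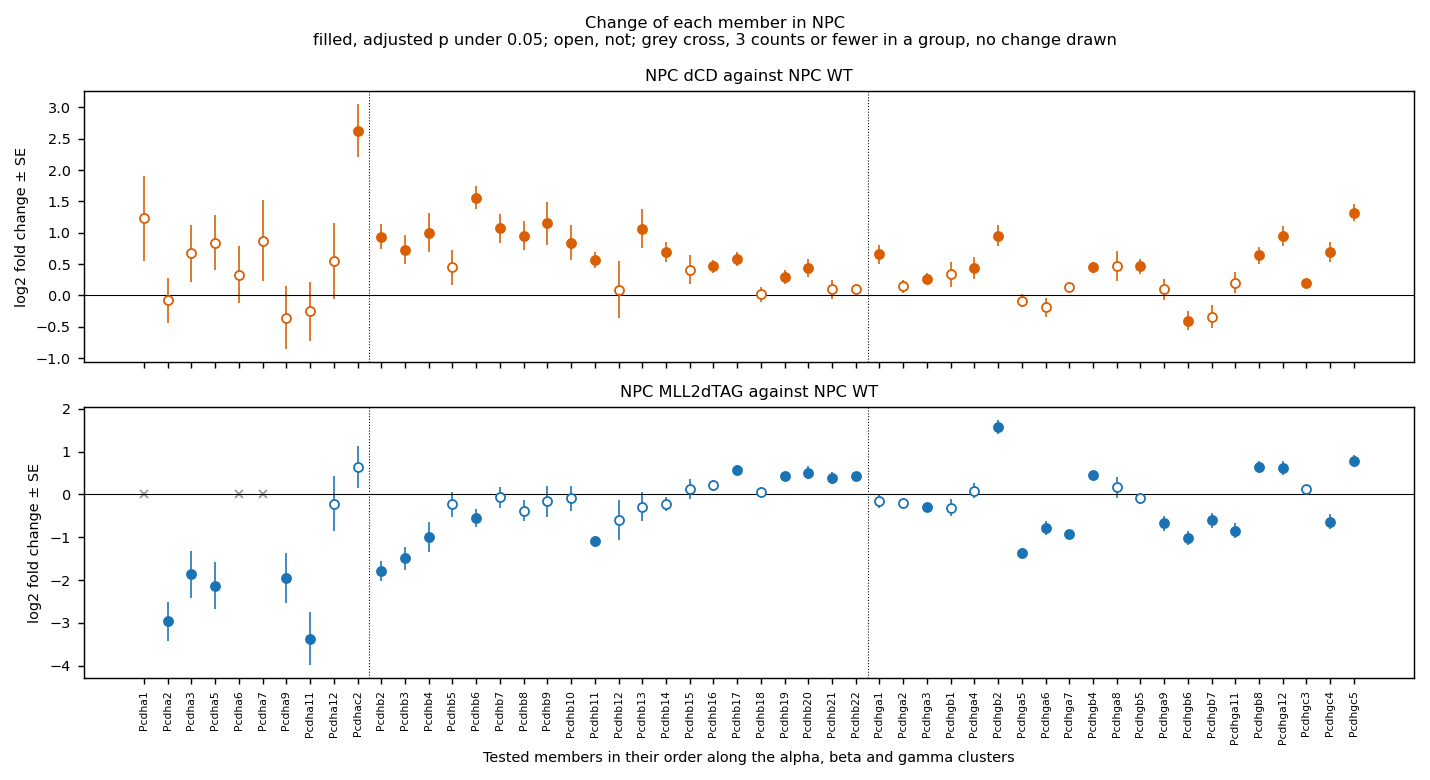
log2 fold change ± SE of each tested member in NPC dCD (top) and NPC MLL2dTAG (bottom) against NPC WT, in gene order; filled points passed an adjusted p of 0.05, open points did not, and grey crosses mark members with 3 counts or fewer in a group. In the lower panel the first beta point is -1.79 for Pcdhb2 and the last is 0.43 for Pcdhb22, and the called alpha points are all below 0.

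Both NPC comparisons share the WT libraries. Compared directly, NPC MLL2dTAG had 34 of 52 members lower than NPC dCD (9 alpha, 12 beta and 13 gamma) and 2 higher, where 24.3% of all genes were lower and 31.6% higher. The number of alpha calls is again partly set by the low-count filter. The higher ones were Pcdhb22, at 0.33 ± 0.08, and Pcdhgb2, at 0.63 ± 0.15. The lower beta members were among the first 14 genes of the cluster, from Pcdhb2, at -2.73 ± 0.23 (edgeR adjusted p = 1.1e-12), to Pcdhb14, and the Spearman correlation of the difference with gene order was 0.89 over 21 beta members. The median log2 difference was -0.77 over the members and 0.05 over all genes.

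Other members with high levels had smaller fitted changes. Pcdhb19, a beta isoform near the gamma end, had 12.7, 11.02 and 13.9 CPM in NPC WT, 14.1, 16.4 and 15.5 CPM in NPC dCD and 17.0, 15.8 and 17.6 CPM for NPC MLL2dTAG, so both edited lines lay above WT. Its log2 change was 0.42 ± 0.10 in NPC MLL2dTAG (edgeR adjusted p = 0.00056), and the 0.29 ± 0.10 in NPC dCD (adjusted p = 0.017) was lost without replicate 2 of either group. Pcdhb16 had 13.9, 16.2 and 16.7 CPM in NPC dCD (0.46 ± 0.11) and 13.3, 12.9 and 13.7 CPM for NPC MLL2dTAG (0.23 ± 0.11, edgeR adjusted p = 0.069). Pcdhgb5, a B-type isoform, had 8.22, 7.45 and 7.59 CPM in NPC WT, 11.6, 10.7 and 9.82 CPM in NPC dCD and 7.32, 7.19 and 7.38 CPM for NPC MLL2dTAG, so dCD alone lay above WT. Pcdhga2, an A-type isoform at the start of the gamma cluster, had 12.2, 11.2 and 10.8 CPM in NPC WT and 10.5, 9.42 and 10.1 CPM for NPC MLL2dTAG, lower in every library yet not called (edgeR adjusted p = 0.12).

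The C-type isoforms were described one by one. Pcdhac2, known for the spacing of serotonergic axons, had 0.380, 0.106 and 0.167 CPM in NPC WT and 1.23, 1.16 and 1.61 CPM in NPC dCD, without overlap, a log2 change of 2.63 ± 0.43 (edgeR adjusted p = 2.3e-06), the largest of any member in that comparison. In NPC MLL2dTAG it had 0.415, 0.353 and 0.235 CPM, overlapping WT (0.64 ± 0.49, adjusted p = 0.26). Its share of the alpha counts was 3.79% ± 2.79 (SD, n = 3) in NPC WT, against 15.2% ± 2.17 in NPC dCD and 24.8% ± 8.80 for NPC MLL2dTAG. Between WT ESC and WT NPC it did not pass the test (-0.54 ± 0.53, adjusted p = 0.35).

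Pcdhgc5, which is known as a partner of GABA-A receptors, had 4.05, 3.73 and 3.94 CPM in NPC WT. In NPC dCD it had 10.4, 9.21 and 9.70 CPM, and 7.50, 6.07 and 6.60 CPM were measured for NPC MLL2dTAG. Both edited lines lay above WT without overlap, at log2 changes of 1.32 ± 0.13 (edgeR adjusted p = 6.5e-11) and 0.78 ± 0.13 (adjusted p = 3.8e-06). Pcdhgc4, known to be needed for survival of cortical interneurons, had 4.65, 3.35 and 3.71 CPM in NPC WT, 6.10, 6.78 and 5.89 CPM in dCD and 2.10, 2.69 and 2.66 CPM in MLL2dTAG. It was higher in the first (0.69 ± 0.16, edgeR adjusted p = 0.00042) and lower in the second (-0.64 ± 0.17, adjusted p = 0.0016), with no overlap. Pcdhgc3 was higher in NPC dCD by 0.20 ± 0.06 (edgeR adjusted p = 0.0069), a call lost without NPC dCD replicate 1, and had 31.8, 32.3 and 31.6 CPM in NPC MLL2dTAG (0.12 ± 0.06, adjusted p = 0.11).

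In ESC, Pcdhgc4 had 0.585, 0.796 and 0.476 CPM in WT, 1.15, 1.32 and 1.30 CPM in dCD and 1.21, 0.807 and 1.33 CPM for MLL2dTAG, all above WT. Its log2 change was 1.01 ± 0.28 in dCD (edgeR adjusted p = 0.0033) and 0.84 ± 0.28 in MLL2dTAG (adjusted p = 0.0099), the latter lost without replicate 3 of either group. Pcdhgc5 had 2.5, 4.24 and 2.85 CPM in WT, overlapping the 4.61, 4.64 and 4.02 CPM of dCD (0.43 ± 0.16, edgeR adjusted p = 0.023), a call lost without ESC WT replicate 1 or 3 or ESC dCD replicate 1 or 2. In ESC MLL2dTAG Pcdhgc5 had 5.05, 5.90 and 5.35 CPM, all above WT, and was called higher at a log2 change of 0.73. Pcdhac2 had 0.426, 0.199 and 0.340 CPM in ESC WT and overlapped it in both lines, with changes of 0.37 ± 0.51 and 0.18 ± 0.50 that did not pass the test.

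Pcdhac1 was too low for the test, with 6 counts over the NPC WT libraries and 22 over NPC dCD. Its count of 0 in NPC MLL2dTAG, set at a floor of 3 counts over the group, is 8.36-fold below NPC dCD. Pcdhb1, the first beta gene, had 4, 8 and 0 counts in the same groups. Pcdhb1, Pcdhac2, Pcdhgc4 and Pcdhgc5 are known to lack the conserved promoter element of the other isoforms. Of these 3 are C-type isoforms that were tested, and in NPC dCD all 3 were higher, by a median log2 change of 1.32. In NPC MLL2dTAG 1 was higher and 1 lower. Of all genes 26.7% were higher in NPC dCD, and 33.3% were higher and 28.4% lower in NPC MLL2dTAG. Pcdhgc3, the tested C-type isoform outside this group, was also called higher in NPC dCD. The direction there was thus not particular to members without the element.

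**Figure D5:**
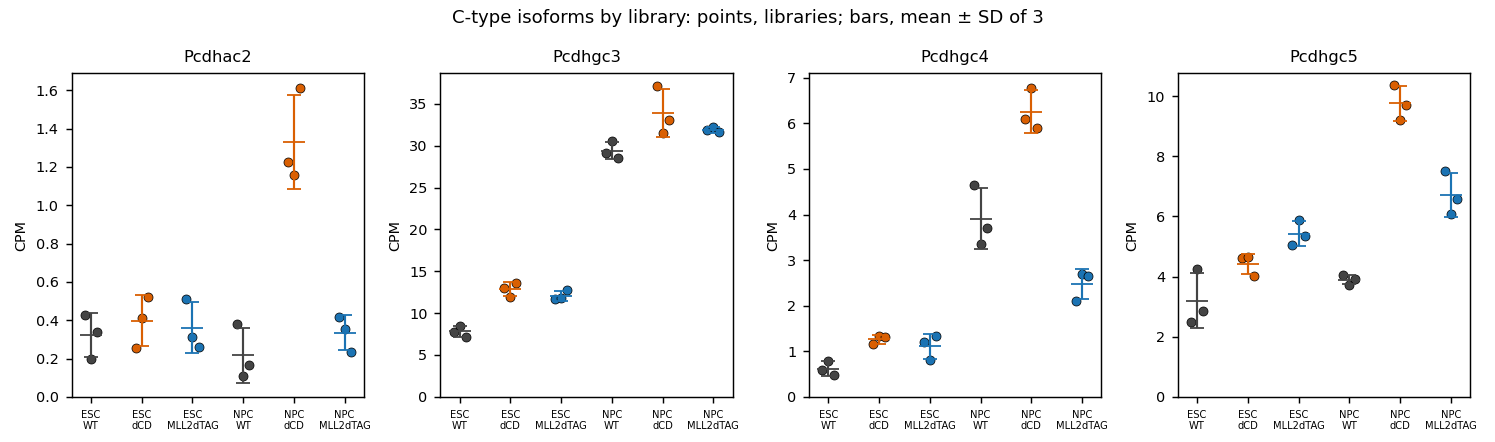
CPM of the 4 tested C-type isoforms in each library by stage and genotype; points are libraries and bars are mean ± SD of 3. Pcdhac2, Pcdhgc4 and Pcdhgc5 are highest in NPC dCD (1.16 to 1.61, 5.89 to 6.78 and 9.21 to 10.4 CPM).

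Whether a genotype's change differed between the stages was tested as an interaction, the change in NPC minus that in ESC. For dCD 22 members had a lower change in NPC than in ESC (9 beta and 13 gamma) and 3 a higher one, where 22.9% of all genes had a lower and 20.0% a higher interaction. For MLL2dTAG 23 of 52 tested members had a lower change in NPC (1 of 10 alpha, 5 of 21 beta and 17 of 21 gamma). Of all genes 22.6% had a lower and 26.4% a higher interaction, and the alpha and beta counts lie near or below the lower share. The 1 alpha call, Pcdha11, rests on 3 ESC MLL2dTAG libraries of which 1 has counts, and without that library (replicate 3) its interaction turned from -3.58 to 0.44. Among gamma members Pcdhga5 went from 1.12 ± 0.18 in ESC MLL2dTAG to -1.37 ± 0.11 in NPC MLL2dTAG, an interaction of -2.48 ± 0.21 (edgeR adjusted p = 2.5e-12). Pcdhga7 gave -2.03 ± 0.18. For dCD Pcdhac2 gave 2.26 ± 0.68 (edgeR adjusted p = 0.0065) and Pcdhgc5 0.89 ± 0.21, the C-type isoforms whose change was larger in NPC, and the third was Pcdhga12. The 5 beta calls for MLL2dTAG came to 2 or 3 without ESC MLL2dTAG replicate 1, ESC WT replicate 1 or 3, NPC MLL2dTAG replicate 2 or NPC WT replicate 3, and to 1 with halved counts.

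Other genes tied to the clusters were followed as lists, whose counts read against the shares of all genes called. Those shares were 25.7% higher and 22.6% lower in ESC dCD, 28.7% and 28.2% in ESC MLL2dTAG, 26.7% and 26.8% in NPC dCD, and 33.3% and 28.4% in NPC MLL2dTAG. Counts of a few genes near these shares, such as 3 of 13, say nothing particular of a list. Of 13 insulator and cohesin genes, only some of which help fold the enhancers onto isoform promoters, 10 were lower in NPC dCD. Their log2 changes were no lower than -0.39 (Wiz). In NPC MLL2dTAG 6 were higher and 3 lower, from -0.32 (Wiz) to 0.17 (Stag1), and in ESC MLL2dTAG 3 were higher and 5 lower. In ESC MLL2dTAG the largest called difference of the 13 was that of Ctcfl, the germline relative of Ctcf, at 2.09 ± 0.431 CPM in ESC WT and 0.450 ± 0.145 CPM in ESC MLL2dTAG. Of 11 genes of DNA methylation and repression, which hold unchosen promoters silent, 5 were lower and 3 higher in ESC MLL2dTAG, 3 were lower and 6 higher in NPC MLL2dTAG, 7 were lower in NPC dCD, and 5 were lower and 5 higher in ESC dCD. Dnmt1, the maintenance methyltransferase, was at 544 ± 14.5 CPM in ESC WT and 249 ± 3.59 CPM in ESC MLL2dTAG (log2 change -1.13 ± 0.03), and at 385 ± 2.95 and 207 ± 3.77 CPM in the NPC groups (-0.89 ± 0.03). Dnmt3l went the other way in NPC, from 0.935 ± 0.0776 CPM in WT to 8.89 ± 0.708 CPM in MLL2dTAG (log2 change 3.25 ± 0.12). Of 15 signalling and processing partners 11 were higher and 4 lower in NPC MLL2dTAG and 8 higher and 4 lower in NPC dCD. The 4 called lower in NPC dCD include Ret, a receptor kinase that phosphorylates clustered protocadherins, at 10.4 ± 0.440 CPM in WT and 3.01 ± 0.594 CPM in dCD, and the higher include the kinase Ptk2b, which these proteins are known to inhibit, at 3.19 ± 0.290 and 10.4 ± 0.0427 CPM. Ptk2b was also higher in NPC MLL2dTAG, at 14.0 ± 0.909 CPM (log2 change 2.13 ± 0.09). In ESC dCD it was lower, at 25.4 ± 1.17 CPM against 40.7 ± 2.68 CPM in ESC WT. In ESC 4 of the 15 were higher and 5 lower in dCD, and 6 higher and 5 lower in MLL2dTAG.

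Non-clustered protocadherins, which are single genes outside the arrays with the same adhesion fold, gave 9 higher and 1 lower of 11 tested in NPC dCD, 4 higher and 4 lower in NPC MLL2dTAG, and 6 higher in ESC for either line. All 11 rose from WT ESC to WT NPC, as 39.1% of all genes did. Pcdh17 had 9.45 ± 0.733 CPM in NPC WT and 47.8 ± 3.66 CPM in NPC dCD, with 20.1 ± 2.11 CPM in NPC MLL2dTAG, and Pcdh20 had 5.18 ± 0.740 CPM in NPC WT and 0.617 ± 0.239 CPM in NPC MLL2dTAG. The 16 tested neighbour genes around the clusters, of which Pcdh1 and Pcdh12 are also non-clustered protocadherins, gave 7 higher and 2 lower in NPC dCD, 7 and 6 in NPC MLL2dTAG, 8 and 2 in ESC dCD, and 11 and 3 in ESC MLL2dTAG. Of all genes 26.7% were higher and 26.8% lower in NPC dCD, and 33.3% and 28.4% in NPC MLL2dTAG. In ESC dCD the shares were 25.7% and 22.6%, and in ESC MLL2dTAG 28.7% and 28.2%. The neighbours were not tested against all genes. Of the neighbours Pcdh1 had 27.8 ± 0.870 CPM in NPC WT and 58.4 ± 2.83 CPM in NPC dCD, and Arap3, a regulator of small GTPases, had 8.86 ± 0.544 CPM in NPC WT and 1.84 ± 0.0891 CPM in NPC MLL2dTAG.

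Some markers of cell types differed between the same NPC groups, and their part in the protocadherin results was not tested. Of all genes 33.3% were higher and 28.4% lower in NPC MLL2dTAG, and 26.7% and 26.8% in NPC dCD. Counts of a few markers near or below these shares, such as 3 of 10 or 1 of 5, say nothing particular of a cell type. In NPC MLL2dTAG 7 of 8 stem cell markers were higher than in WT, with a summed level of 295 to 301 CPM against 120 CPM in each WT library and Dppa3 at 0 in both. All 7 endoderm markers were higher there, at 821 to 846 CPM against 409 to 425 CPM. Of 10 neuron markers 3 were higher and 4 lower, at 288 to 305 CPM against 311 to 319 CPM, and of 8 precursor markers 4 were higher and 2 lower, at 216 to 221 CPM against 155 to 160 CPM. In NPC dCD 6 of 10 neuron markers were higher and 2 lower, at 452 to 487 CPM, 4 of 8 precursor markers were higher, at 322 to 356 CPM, and 5 of 7 endoderm markers were lower, at 295 to 302 CPM. Mesenchyme markers summed to 1317 to 1333 CPM in NPC MLL2dTAG and 1426 to 1544 CPM in NPC dCD against 770 to 788 CPM in WT, with 5 of 8 higher in each, 3 lower in MLL2dTAG and 1 lower in dCD. Of 5 tested glial markers 1 was higher and 1 lower in NPC MLL2dTAG, and all groups of NPC stood between 4.63 and 6.59 CPM. The mesoderm markers summed to 2.34 to 3.89 CPM over the NPC groups, with Mesp1 at 0 in NPC MLL2dTAG, and of 5 tested 1 was higher and 1 lower there, and 2 higher and 1 lower in dCD.

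In ESC all 8 mesenchyme markers were higher in either line than in WT, where 25.7% of all genes were higher in dCD and 28.7% in MLL2dTAG. These markers summed to 810 to 901 CPM in dCD and 893 to 947 CPM in MLL2dTAG against 506 to 624 CPM in WT. Their part in the gamma and beta increases was not tested. The stem cell markers summed to 2490 to 2609 CPM in ESC WT, 2549 to 2647 CPM in ESC dCD and 3274 to 3374 CPM in ESC MLL2dTAG. Of these 8 markers 3 were higher and 3 lower in ESC dCD, and 7 higher and 1 lower in ESC MLL2dTAG. Of all genes 22.6% were lower in ESC dCD and 28.2% in ESC MLL2dTAG. In ESC dCD 4 of 8 precursor markers were higher and 0 lower. Of 5 tested mesoderm markers 3 were higher and 1 lower there, and of 7 endoderm markers 0 and 3. In ESC MLL2dTAG these counts were 3 and 3, 0 and 3, and 3 and 1.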

How the data were processed

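The deposited values are raw counts per gene and library, made by the authors with HTSeq from reads of a TruSeq Stranded mRNA kit, per the labels' protocols and the submitters' processing notes. The aligner, genome build and annotation are not given in the sources used here, so no coordinates are printed. Of 36 samples in the series 18 were not used here: 6 columns of the same table carry repeated names and 12 columns of another table match no label.

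Genes were kept by filterByExpr over the 6 groups, leaving 20511, scaled by trimmed mean of M values (factors 0.967 to 1.05) and tested in 1 model of all 18 libraries, which share 1 estimate of the spread (12 residual degrees of freedom). Tests were the edgeR 4.0.16 quasi-likelihood test in R 4.3.3 with Benjamini-Hochberg adjustment over all genes, called at an adjusted p under 0.05, and were tested on simulated data. Contrasts were each edited line against WT at one stage, WT NPC against WT ESC, the lines against each other, and the genotype by stage interactions. For a group without counts, folds use a floor of 3 counts over the group, which in a single library is 0.0662 to 0.160 CPM. These folds take the other group's count as exact, so they are not strict lower bounds. Intervals are exact at 95%. Countable sequence was taken from GENCODE M21, in which 47624 of the 51734 symbols were found, and levels per kb are given for members with at least 1000 free bases. Members in full are the 3 highest of the alpha, beta, gamma A and gamma B classes, all C-type isoforms, Pcdhb1, and the extreme called members without overlap per cluster and comparison. From the lists of regulators, non-clustered protocadherins and neighbours the 3 largest called changes could be named. Alternatives were other scalings, filters and tests (DESeq2 1.42.0), halved counts, a replicate block and leaving out each library. Members and lists were chosen with earlier results of these data known.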

Additional observations from a re-analysis of the deposited data

Results flagged for a closer look

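Several members differed between the stages in their response to the same genotype, by the interaction of genotype and stage (edgeR quasi-likelihood test). For dCD the interaction was 2.26 for Pcdhac2 and 0.89 for Pcdhgc5, higher in NPC, and -4.89 for Pcdhb4 and -1.97 for Pcdhgb6, higher in ESC. Pcdhb4 had no count in ESC WT, so its value depends on the prior count and is no bound. By cluster 1 of 10 tested alpha members (higher), 9 of 21 beta (all lower) and 15 of 21 gamma (13 lower, 2 higher) were called. Of all genes 22.9% had a lower and 20.0% a higher interaction, and the alpha count lies below those shares. For MLL2dTAG the interaction was -3.58 for Pcdha11, -4.36 for Pcdhb13 and -2.77 for Pcdhgb6. Called were 1 of 10 alpha, 5 of 21 beta and 17 of 21 gamma members, all lower, where 22.6% of all genes had a lower and 26.4% a higher interaction. The alpha and beta counts lie near or below the lower share. Pcdhb13 had 6 counts in ESC MLL2dTAG and 0 in ESC WT, and its call was lost without any 1 of 6 libraries. That of Pcdha11 was lost without any 1 of 7.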

How the results depend on the processing

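Of the named members' fold changes, 2121 values under other settings kept direction and side of the threshold, 20 became weaker and 20 stronger. With 1 library left out 1733 kept both, 92 became weaker, 21 stronger and 2 reversed. The reversed ones were Pcdha3 in ESC MLL2dTAG against dCD (-5.38, with a range of -5.95 to 0.00, the latter without ESC dCD replicate 3) and the MLL2dTAG interaction of Pcdha11 (-3.58, with a range of -4.15 to 0.44, the latter without ESC MLL2dTAG replicate 3), each resting on counts of the library left out. Alpha results are limited by depth, since no alpha member reaches a mean of 1 CPM over all 18 libraries.

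A filter at 1 CPM leaves 0 alpha calls in every comparison by construction, and 7 lower beta calls in place of 12 for NPC MLL2dTAG against dCD. Fitted on only the groups compared, which changes both the members that pass the filter and the estimate of the spread, ESC dCD gave 0 alpha (of 1 tested) and 2 beta (of 2) higher, ESC MLL2dTAG gave 0 alpha (of 1) lower and 1 beta (of 1) higher, NPC dCD gave 3 alpha (of 10) higher, and ESC MLL2dTAG against dCD gave 0 alpha (of 1) and 3 beta (of 7) lower. With halved counts ESC MLL2dTAG gave 0 alpha lower, NPC dCD 2 alpha higher, ESC MLL2dTAG against dCD 2 alpha lower, NPC MLL2dTAG against dCD 2 beta higher, and the MLL2dTAG interaction 0 alpha and 1 beta lower. The DESeq2 test gave 0 alpha higher in ESC dCD and 0 gamma lower in NPC dCD, and no filter gave 2 alpha higher in ESC dCD. The lower gamma call of WT NPC against ESC became 0 with DESeq2 size factors, library totals, no filter, the DESeq2 test, only the groups compared, halved counts and the replicate block. The block, whose numbers do not pair the libraries (correlations of same-numbered deviations -0.028 to 0.026), moved no other count of calls by over 1.5 times. With library totals the summed CPM was 125.5 for beta in NPC WT, 170.1 for beta in NPC dCD, 59.5 for gamma in ESC dCD and 162 for gamma in NPC WT. Except where the construction is named, the cause was not tested.

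With each library left out in turn, called members ranged as follows. In ESC dCD 0 to 2 alpha were higher and 0 to 1 beta lower. In ESC MLL2dTAG 0 to 2 alpha were lower, 3 to 6 beta higher and 0 to 1 beta lower. In NPC dCD 1 to 2 alpha were higher and 0 to 1 gamma lower, and in WT NPC against ESC 0 to 1 gamma lower. In ESC MLL2dTAG against dCD 2 to 5 alpha and 0 to 1 gamma were lower. The dCD interaction had 0 to 1 alpha lower, 0 to 1 beta higher and 1 to 2 gamma higher, and the MLL2dTAG interaction 0 to 1 alpha lower, 0 to 1 beta higher and 2 to 7 beta lower.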
